A study of Homo sapiens with 6 samples.

Results

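The interferon response and the sensors of foreign DNA and RNA that start it were examined in TC28a2 cells, a human chondrocyte line immortalised with the SV40 large T antigen. A list of 44 genes was followed, comprising interferon-stimulated genes, 2 interferon genes and the sensing genes that bear on plasmid transfection. All 44 were among the 28395 genes of the counts table, found there through their Entrez identifiers, and 42 of them had enough counts to be tested, among 13373 tested genes. The cells carried either a control vector (3 libraries) or an FAP overexpression vector (3 libraries), and RNA was taken 48 hours after transfection and sequenced by DRUG-seq, a multiplexed form of RNA sequencing. FAP is fibroblast activation protein, a membrane serine protease. Both groups received a vector, and neither the vector backbone, the promoter driving FAP nor the transfection reagent is given in the labels used here. No untransfected cells are among the 6 samples, so the response to transfection itself cannot be told apart from the basal state of the line. Whether replicates were separate cultures is not stated, so each p-value covers variation among these 6 libraries only, part of which could be technical.

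Interferon-stimulated genes are switched on in cascade. DNA in the cytosol is bound by cGAS, whose product cGAMP activates STING1, and RNA is bound by RIG-I (RIGI) and MDA5 (IFIH1), which signal through MAVS. Both branches meet at the kinase TBK1, which phosphorylates IRF3 and so leads to interferon beta and lambda. Secreted interferon acts through its receptors and the JAK kinases to form ISGF3, a complex that includes STAT2 and IRF9 and binds the interferon-stimulated response element (ISRE) in the promoters of the effector genes. Many effectors are also transcribed at a low level without added interferon. The SV40 large T antigen is an oncoprotein of a DNA tumour virus. Both groups are of the same line, and the level of the antigen was not examined.

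Many of the promoters carry the letters of this element. Gene and promoter coordinates are those of GRCh38.p14. RefSeq promoter windows (GRCh38.p14, from 250 bases before to 50 after the annotated start) were found for 34 of the 44 genes. An ISRE core, written GAAANNGAAA and searched on both strands, lay in 20 of these 34 windows (58.8%), against 996 of 27305 windows of all genes (3.65%) and 2.82% of the windows of tested genes. The STAT element GAS, TTCNNNGAA, which reads the same on both strands, lay in 9 of 34 (26.5%) against 7.88% of all windows. These matches are descriptions of letters and not measured binding sites. The windows below belong to 6 genes that the results turn on, ISG15 and IFIT3 as the most abundant effectors, IFI27, ISG20 and RSAD2 as genes with small p-values, and DTX3L for its pattern over libraries. Each gene has a single window, so a core near another start of the gene would be missed. Capitals mark the ISRE core, and in RSAD2, whose window holds none, half-sites 1 base apart (GAAANGAAA).
ISG15, chr1:1013247-1013546, plus strand: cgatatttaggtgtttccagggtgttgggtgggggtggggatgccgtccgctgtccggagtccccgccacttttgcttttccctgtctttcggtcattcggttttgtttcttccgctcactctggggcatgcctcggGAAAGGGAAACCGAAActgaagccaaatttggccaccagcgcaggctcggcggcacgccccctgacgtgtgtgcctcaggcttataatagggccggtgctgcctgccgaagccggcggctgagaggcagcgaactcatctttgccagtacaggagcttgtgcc
IFIT3, chr10:89327747-89328046, plus strand: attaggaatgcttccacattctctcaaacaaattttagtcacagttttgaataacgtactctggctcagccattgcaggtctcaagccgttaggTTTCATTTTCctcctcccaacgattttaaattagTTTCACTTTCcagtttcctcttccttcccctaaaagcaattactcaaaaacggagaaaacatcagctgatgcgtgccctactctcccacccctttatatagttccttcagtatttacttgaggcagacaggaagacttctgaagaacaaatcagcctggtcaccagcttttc
IFI27, chr14:94110486-94110785, plus strand: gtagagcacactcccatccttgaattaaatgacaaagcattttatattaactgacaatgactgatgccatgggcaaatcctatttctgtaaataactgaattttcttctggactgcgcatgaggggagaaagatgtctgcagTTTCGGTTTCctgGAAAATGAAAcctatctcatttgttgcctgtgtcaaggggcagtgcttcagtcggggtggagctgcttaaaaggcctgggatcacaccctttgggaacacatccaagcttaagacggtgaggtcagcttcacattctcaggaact
ISG20, chr15:88638766-88639065, plus strand: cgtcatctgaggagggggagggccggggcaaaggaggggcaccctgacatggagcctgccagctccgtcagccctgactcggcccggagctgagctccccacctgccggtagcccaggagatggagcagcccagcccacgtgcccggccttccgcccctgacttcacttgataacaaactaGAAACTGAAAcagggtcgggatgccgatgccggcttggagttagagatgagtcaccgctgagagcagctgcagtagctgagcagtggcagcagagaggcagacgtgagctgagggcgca
RSAD2, chr2:6865635-6865934, plus strand: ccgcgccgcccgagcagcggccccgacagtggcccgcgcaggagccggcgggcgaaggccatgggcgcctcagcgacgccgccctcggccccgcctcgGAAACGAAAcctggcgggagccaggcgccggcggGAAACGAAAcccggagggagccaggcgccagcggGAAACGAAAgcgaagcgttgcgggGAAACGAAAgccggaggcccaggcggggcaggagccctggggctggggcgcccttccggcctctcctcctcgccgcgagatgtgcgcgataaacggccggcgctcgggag
DTX3L, chr3:122564088-122564387, plus strand: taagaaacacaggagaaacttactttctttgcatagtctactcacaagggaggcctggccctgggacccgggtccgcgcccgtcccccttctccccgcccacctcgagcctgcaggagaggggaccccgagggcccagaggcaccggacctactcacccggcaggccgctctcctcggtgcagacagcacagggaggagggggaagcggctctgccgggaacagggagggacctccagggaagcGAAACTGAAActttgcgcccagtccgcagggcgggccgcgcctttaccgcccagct

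In ISG15 a pair of cores overlap between positions -113 and -98 from the start, and in IFIT3 the cores lie from -156 to -147 and from -122 to -113. IFI27 has 1 core on each strand, ISG20 a core at -69 to -60, and DTX3L a core that spans its start, from -6 to 3. The RSAD2 window instead holds 4 copies of GAAACGAAA. This window lies inside the annotated span of CMPK2 (chr2:6840553-6866635), and no other start of RSAD2 was searched. The shorter spacing was searched after the windows had been seen. It lay in 12 of 34 windows (35.3%), against 3.22% of all windows, and it can overlap an ISRE core, as it does in OAS3.

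Depth and identity of the libraries bear on what follows. Total gene counts ran from 5736056 to 13839743 and did not differ in mean between groups by more than their spread (two-sided exact permutation test, p = 0.5, with 0.1 the smallest possible). FAP counts were 0, 11 and 5 in the control libraries and 1396, 3182 and 4733 in the FAP libraries, so each library matched its label. Replicate 3 of the FAP group stood apart from the others by counts (17.5 and 16.7 chi-square units per degree of freedom, with 6.06 for FAP replicate 1 against 2). Of 13 chondrocyte markers SOX9 alone had enough counts to be tested (22.6 to 42.5 CPM), and COL2A1 and ACAN were at most 0.547 and 1.64 CPM in any library, so the main cartilage matrix genes were at or near the limit of detection. The 13 markers summed to 27 to 36.1 CPM with the control vector and 34.6 to 45.0 CPM with FAP. SOX9 made up most of these sums, at 22.6, 31.7 and 31.8 CPM with the control vector and 38.2, 42.5 and 31.3 CPM with FAP. Its groups overlapped. ACAN alone of the 13 had groups that did not overlap, and it ran the other way. It was at 1.09, 1.64 and 0.869 CPM with the control vector and 0.319, 0.846 and 0.444 CPM with FAP. Summed CPM of 11 leukocyte markers was 1.42 to 2.19 in controls and 2.04 to 2.55 in FAP libraries, with MS4A1 and CLEC4C at 0 throughout and PTPRC, which marks all leukocytes, at 0 to 0.436 CPM. The monocyte genes CD14 (0.766 ± 0.286 and 1.35 ± 0.242 CPM, log2 fold change 0.78, adjusted p = 0.659) and LYZ (0, 0 and 2 counts against 4, 6 and 4) had all FAP libraries above all controls. Over all tested genes 7.96% had this separation. Epithelial markers (4 genes) summed to 0.182 to 0.982 CPM with the control vector and 0.370 to 1.43 CPM with FAP. Among them KRT5, at 0, 2 and 3 counts in controls and 4, 6 and 5 in FAP libraries, was separated in the same way. Endothelial markers (3 genes) summed to 0.711 to 0.982 CPM with the control vector and 1.83 to 2.55 with FAP, with CDH5 at 0. PECAM1, a junction protein of endothelium and the one tested gene of these, had 1, 4 and 9 counts in controls and 12, 20 and 24 in FAP libraries (1.74 on the log2 scale, unadjusted p = 0.005616, adjusted p = 0.293), and all FAP libraries were above all controls. The part of these marker levels in the results was not tested.

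Levels are given as TMM-scaled CPM (a gene's counts relative to the library total as scaled by edgeR), group values as mean ± SD with n = 3, and changes as log2 fold changes of FAP vector minus control vector. Calls required an adjusted p below 0.05 (Benjamini-Hochberg over all 13373 genes) in edgeR's quasi-likelihood test. No gene of the 44 was called, against 0.224% of all tested genes (30 genes). Negative log2 fold changes were found in 31 of the 42 tested genes, against 49.3% of all tested genes. The median of the 42 was -0.13, against 0.00313 over all tested genes, and without control replicate 2 it was -0.055. At an unadjusted p under 0.05, 10 of the 42 lay lower in FAP libraries (5.30% of all tested genes) and 1, DTX3L, lay higher (4.61% of all). The 10 were IFIT3, RSAD2, ISG20, IFI27, HERC6, ISG15, OASL, RIGI, IFIT1 and STING1, and without control replicate 2 there were 4. All 3 FAP libraries were below all 3 controls in 7 of the 42 (8.0% of all tested genes) and above them in 0 of the 42 (7.96% of all). The 7 were IFIT3, ISG15, OASL, IFI27, USP18, HERC6 and RSAD2.

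**Figure D1:**
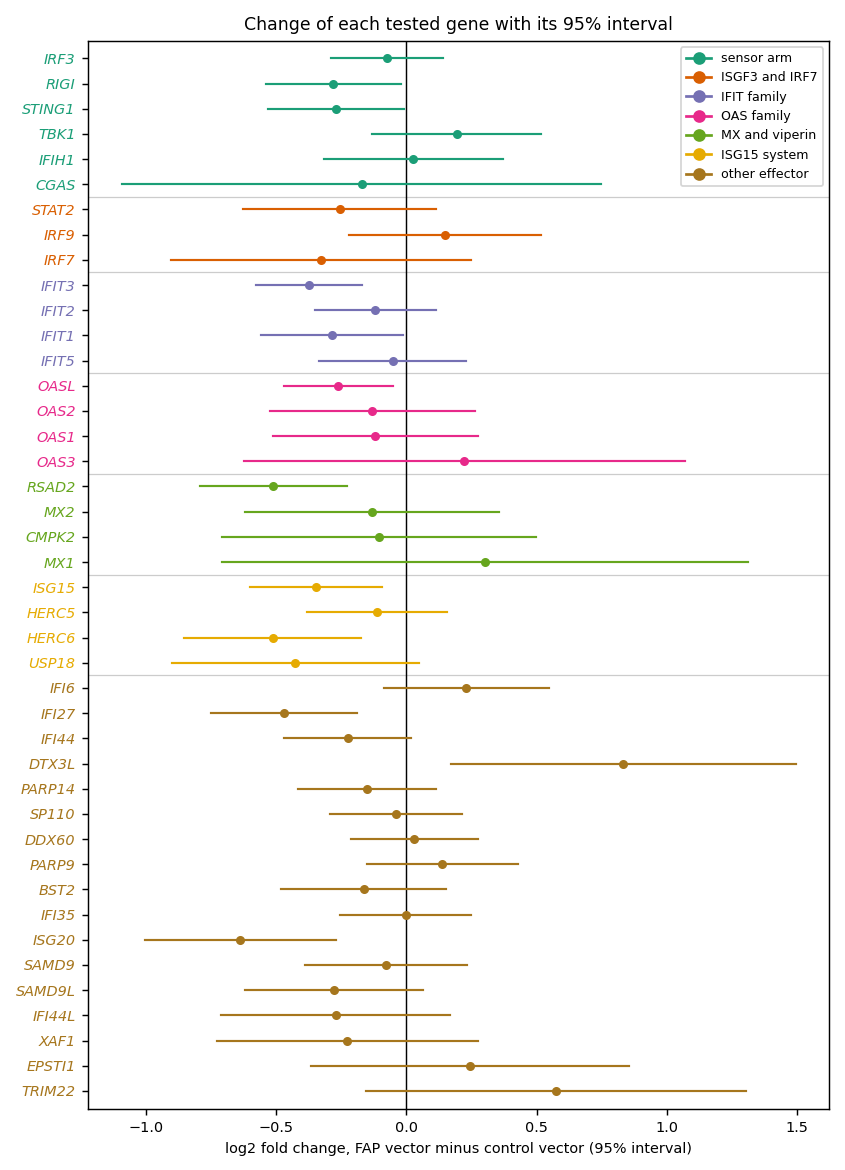
Log2 fold change (x axis, FAP vector minus control vector) of each of the 42 tested genes (y axis, coloured by role), with its 95% interval from the edgeR fit as a bar. Of the 42 points 31 lie left of 0, most with intervals that cross 0, and DTX3L stands to the right with a wide interval that starts at 0.17.

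The standard error of the log2 fold change ran from 0.10 for IFIT3 to 0.48 for MX1, with a median of 0.15. In 36 of the 42 genes the 95% interval lay between a halving and a doubling, that is inside -1 and 1 on the log2 scale. The others were ISG20, MX1, OAS3, DTX3L, TRIM22 and CGAS. Of the 44 genes 32 had a mean of at least 10 CPM and 10 tested genes were below it.

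**Figure D2:**
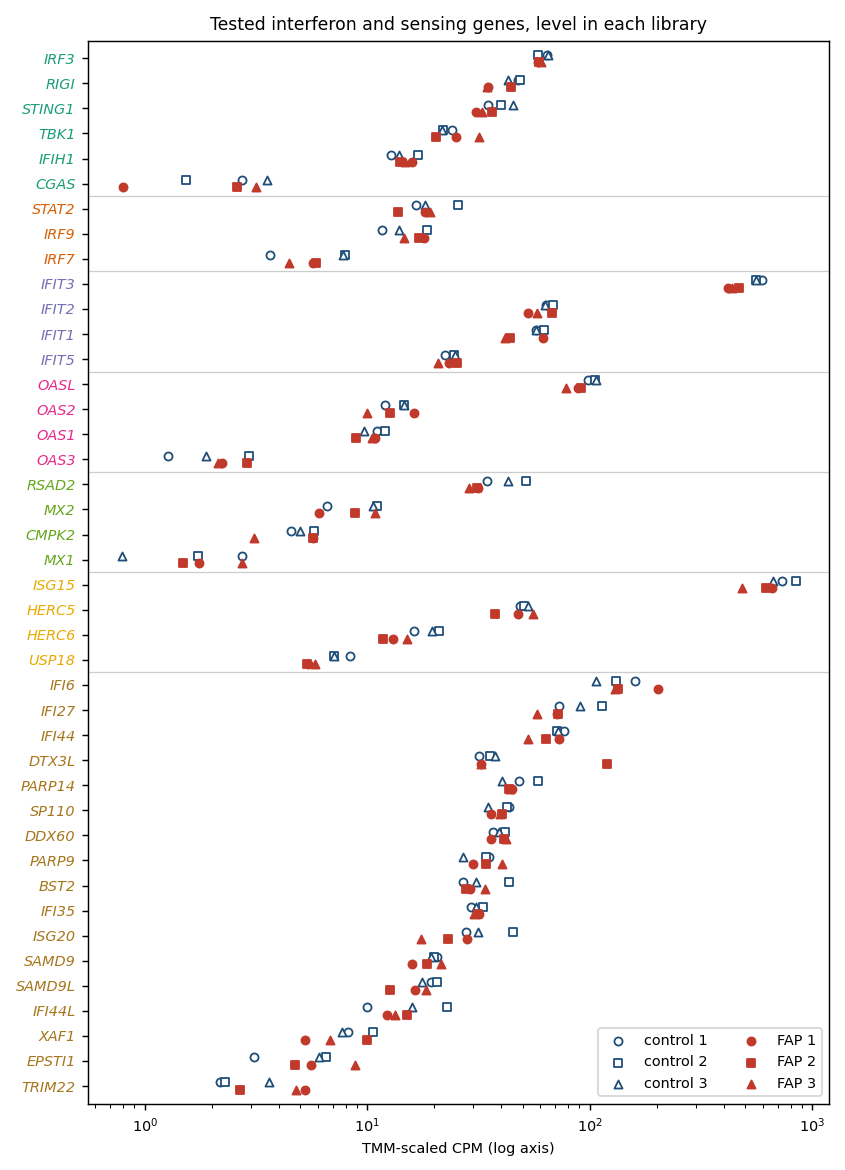
Level of each tested gene (y axis, grouped by role) in each of the 6 libraries, on a log axis of TMM-scaled CPM, with controls as open and FAP libraries as filled symbols. ISG15 and IFIT3 lie far above the rest, MX1, OAS3 and CGAS lie near 1 to 4 CPM, and FAP replicate 2 stands alone for DTX3L.

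The sensing arm was present in both groups, with cGAS at the lowest level of the arm, both in CPM and per transcript length. CGAS (Entrez 115004, chr6:73423711-73452297), the DNA sensor, was at 2.74, 1.53 and 3.56 CPM in control replicates 1, 2 and 3 and at 0.797, 2.61 and 3.18 CPM in FAP replicates 1, 2 and 3. Each value rests on 5 to 45 counts. The groups overlapped, and the log2 fold change was -0.17 with a 95% interval from -1.09 to 0.75 (adjusted p = 0.931), so a 2-fold fall lies within the interval at this depth.

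STING1 (Entrez 340061, chr5:139475533-139482758), the adaptor of the membrane of the endoplasmic reticulum that receives the signal of cGAS, was at 34.8, 39.9 and 45.1 CPM with the control vector and at 30.8, 36.2 and 32.8 CPM with FAP. The range of the FAP libraries ran lower but overlapped that of the controls. The change was -0.27 on the log2 scale (SE 0.13, adjusted p = 0.482). TBK1, the kinase shared by both branches, was at 24.1, 22.0 and 21.7 CPM with the control vector and at 25.2, 20.3 and 31.7 CPM with FAP (0.19, SE 0.16, adjusted p = 0.720). FAP replicate 3 held the highest TBK1 level and FAP replicate 2 the lowest.

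IRF3, the transcription factor activated by TBK1, had the narrowest interval of the arm. Its levels were 64.2, 58.8 and 64.9 CPM with the control vector and 58.8, 58.9 and 60.4 CPM with FAP, with a log2 fold change of -0.08 (SE 0.10, adjusted p = 0.847) and a 95% interval from -0.29 to 0.14. IRF3 overlaps BCL2L12 by 716 bases (74.9 CPM), and with no strand setting given, reads of the overlap cannot be assigned to 1 of them with certainty.

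The RNA sensors differed in level and in the sign of their values. RIGI (Entrez 23586, chr9:32455302-32526196) was at 47.8, 48.8 and 42.9 CPM with the control vector and at 34.9, 44.4 and 34.6 CPM with FAP. FAP replicates 1 and 3 were below all controls, while FAP replicate 2 was above control replicate 3. The change was -0.28 on the log2 scale (SE 0.12, adjusted p = 0.458). IFIH1 (Entrez 64135, chr2:162267074-162318684), which encodes MDA5, was at 12.8, 16.9 and 13.9 CPM with the control vector and at 15.9, 14.1 and 14.8 CPM with FAP (0.03, SE 0.17, adjusted p = 0.976).

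IFIH1 is also the gene beside FAP itself, 23.6 kb from it on chromosome 2. FAP itself was at 0.532 ± 0.612 CPM with the control vector and at 266 ± 73.2 CPM with its own, while IFIH1 was at 14.5 ± 2.14 and 14.9 ± 0.927 CPM. Whether FAP reads came from the vector or from the endogenous gene cannot be told apart in gene counts.

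The interferon genes themselves were at the limit of detection. IFNB1, interferon beta, had 0, 0 and 1 counts in controls and 0, 1 and 0 in FAP libraries. IFNL1, interferon lambda 1, had 0, 0 and 4 counts in controls and 0, 1 and 0 in FAP libraries. A count of 0 allows up to 3 counts, or 0.211 to 0.547 CPM depending on the library, and this limit covers counting error only. These were the 2 genes of the 44 that the low-count filter removed. Of 20 other interferon genes, 18 had no count in any library, IFNW1 had 3 counts in FAP replicate 3, and IFNE had 5 in control replicate 3 and 1, 0 and 11 in FAP replicates 1, 2 and 3. IFNE is a type I interferon known mainly from epithelia of the reproductive tract. RNA was sampled at a single time, 48 hours after transfection.

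The factors that carry the interferon signal had overlapping groups. STAT2, the ISGF3 subunit with the activation domain, was at 16.6, 25.6 and 18.3 CPM with the control vector and at 18.2, 13.8 and 19.2 CPM with FAP (-0.26, SE 0.18, adjusted p = 0.660, as log2 fold change and standard error). IRF9, the DNA-binding subunit, was at 11.7, 18.5 and 13.9 CPM with the control vector and at 18.0, 17.1 and 14.6 CPM with FAP (0.15, SE 0.18, adjusted p = 0.822). IRF7, which amplifies interferon alpha production, was at 3.65, 7.96 and 7.82 CPM with the control vector and at 5.74, 5.92 and 4.44 CPM with FAP (-0.33, SE 0.28, adjusted p = 0.733). For all 3 factors control replicate 2 was the highest library. Their signs were mixed, and no value passed the test.

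The IFIT genes, which bind foreign RNA and block its translation, lie together on chromosome 10 and all 4 had negative values. IFIT3 (Entrez 3437, chr10:89327997-89340968), whose product stabilises IFIT1 on RNA, was by far their most abundant member, also per transcript length (203 CPM per kb). It was at 595, 559.6 and 558 CPM with the control vector and at 418, 468 and 435 CPM with FAP. The controls lay close together and every FAP library lay below them. The group values were 571 ± 20.6 and 440.2 ± 25.5 CPM. The change was -0.37 on the log2 scale (SE 0.10), and its adjusted p of 0.156 was the smallest of the 42 genes. IFIT3 was called by DESeq2 (adjusted p = 0.009539), as the single one of the 44, where 0.613% of all genes were called. It was also called when FAP replicate 3 was left out (edgeR, adjusted p = 0.04093), where 1.86% of all genes were.

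The 3 other IFIT genes were at lower levels. IFIT1, which recognises RNA caps lacking 2'-O methylation, was at 57.3, 62.3 and 57.6 CPM with the control vector and at 61.5, 43.9 and 41.7 CPM with FAP (-0.29, adjusted p = 0.474). FAP replicate 1 sat among the controls and the others below them. IFIT2 and IFIT5 had log2 fold changes of -0.12 and -0.05 (adjusted p = 0.766 and 0.930). All 4 genes overlap the annotated span of LIPA, a lysosomal lipase gene at 27.2 CPM, which has its highest level (33.3 CPM) in FAP replicate 2.

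The ISG15 system attaches and removes a ubiquitin-like tag. ISG15 (Entrez 9636, chr1:1013497-1014540), the tag itself, was the most abundant gene of the list. Its mean was 667 CPM, or 848 CPM per kb of its longest transcript. It was at 729, 844 and 668 CPM with the control vector and at 659, 619 and 484 CPM with FAP. The groups did not overlap, but FAP replicate 1 came close to control replicate 3. The change was -0.35 on the log2 scale (SE 0.12, adjusted p = 0.337).

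HERC6, a HECT ligase of the family that conjugates ISG15, was at 16.2, 21.1 and 19.6 CPM with the control vector and at 13.1, 11.8 and 15.2 CPM with FAP (-0.51, SE 0.16, adjusted p = 0.281). All FAP libraries were below all controls. Its neighbour HERC5, the main human ISG15 ligase, 14021 bases away on chromosome 4, had overlapping groups (50.7 ± 1.87 and 47.0 ± 8.89 CPM, -0.11, adjusted p = 0.810). USP18, which removes ISG15 and damps the interferon receptor, was at 8.39, 7.09 and 7.11 CPM with the control vector and at 5.42, 5.36 and 5.85 CPM with FAP, again without overlap (-0.43, SE 0.23, adjusted p = 0.552).

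RSAD2 (viperin, Entrez 91543, chr2:6865885-6898239), a radical SAM enzyme that makes a chain-terminating nucleotide, was at 34.7, 51.5 and 42.8 CPM with the control vector and at 31.5, 31.2 and 28.6 CPM with FAP. The FAP libraries were tightly grouped below all controls, which spread more widely. The change was -0.51 on the log2 scale (SE 0.14, adjusted p = 0.162). CMPK2, the nucleotide kinase whose start overlaps that of RSAD2 by 751 bases on the opposite strand, was at 5.11 ± 0.621 and 4.85 ± 1.51 CPM (-0.11, adjusted p = 0.938).

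MX1 and MX2, dynamin-like GTPases that trap viral nucleocapsids, were low. MX1 was at 1.76 ± 0.973 CPM with the control vector and 1.99 ± 0.662 CPM with FAP, from 10 to 37 counts a library. MX2 was at 9.39 ± 2.46 and 8.56 ± 2.38 CPM. Neither passed the test (adjusted p = 0.872 and 0.890).

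The OAS enzymes make 2'-5' oligoadenylates in response to double-stranded RNA. OASL, the relative that lacks this activity and binds RIG-I, was at 98.3, 105 and 106 CPM with the control vector and at 89.1, 91.3 and 78.7 CPM with FAP. The groups did not overlap (-0.26, SE 0.10, adjusted p = 0.391). OAS1, OAS2 and OAS3, which lie side by side on chromosome 12, were at 10.9 ± 1.15, 13.8 ± 1.51 and 2.04 ± 0.843 CPM in controls, with log2 fold changes of -0.12, -0.13 and 0.22. Their adjusted p-values lay between 0.858 and 0.893.

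Of the 17 other effectors 11 had negative values, with a median of -0.08. ISG20 (Entrez 3669, chr15:88635632-88656483), an RNA exonuclease, had the most negative log2 fold change of the 42, -0.64 (SE 0.18, adjusted p = 0.192). It was at 27.9, 45.2 and 31.6 CPM with the control vector and at 28.2, 23.2 and 17.4 CPM with FAP. FAP replicate 1 was above control replicate 1, so the groups overlapped, and control replicate 2 was the highest library.

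IFI27 (Entrez 3429, chr14:94105894-94116690), a small mitochondrial protein induced by interferon alpha, was at 72.6, 114 and 90.5 CPM with the control vector and at 71.2, 72.1 and 58.1 CPM with FAP. The groups did not overlap, though control replicate 1 was only just above FAP replicate 2 (-0.47, SE 0.13, adjusted p = 0.212). IFI44, a cytosolic protein with a GTP-binding motif, was at 76.8, 71.3 and 71.8 CPM with the control vector and at 72.7, 63.5 and 52.7 CPM with FAP (-0.23, SE 0.12, adjusted p = 0.535). Its neighbour IFI44L, 3643 bases away, had the value -0.27 (adjusted p = 0.707). In the fit with no low-count filter, where 0.718% of all genes were called, ISG20, IFI27 and RSAD2 were called lower (adjusted p = 0.002096, 0.007751 and 0.02087) and DTX3L higher. DTX3L, whose value came from 1 library, had the smallest adjusted p of the list in that fit. IFIT3 was not called there (adjusted p = 0.05596).

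IFI6, a mitochondrial and endoplasmic reticulum protein that protects from apoptosis, went the other way in value. It was at 159.8, 131 and 107 CPM with the control vector and at 204, 134 and 129 CPM with FAP (0.23, SE 0.15, adjusted p = 0.644). FAP replicate 1 was the highest library and the rest overlapped. TRIM22, a ubiquitin ligase, had the largest positive value after DTX3L, 0.57 (SE 0.35, adjusted p = 0.616), at 2.70 ± 0.807 and 4.25 ± 1.38 CPM.

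The remaining effectors had log2 fold changes between -0.28 and 0.24. SAMD9L, a translational repressor, was at -0.28 and its neighbour SAMD9 at -0.08. XAF1, an antagonist of XIAP, was at -0.23. BST2 (tetherin), which holds virions at the surface, was at -0.16, and SP110, a nuclear body protein whose span overlaps SP140 (9.27 CPM), at -0.04. DDX60, a helicase linked to RIG-I, was at 0.03 and EPSTI1 at 0.24. IFI35 had the value nearest 0, from 31.1 ± 2.05 to 31.2 ± 0.938 CPM, with a 95% interval from -0.26 to 0.25.

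DTX3L differed in kind, since its value came from 1 library. DTX3L (Entrez 151636, chr3:122564338-122575203), a ubiquitin ligase of the DNA damage response, was at 31.7, 35.6 and 37.7 CPM with the control vector and at 32.5, 119.7 and 32.5 CPM with FAP. FAP replicate 2 was 3.18 times the highest of the other 5 libraries, from 1698 counts, and the other FAP libraries lay within the range of the controls. Among 13373 tested genes DTX3L was the only one to reach 3 times its highest other value in this library at 10 CPM or more. The corresponding numbers were 2 genes in FAP replicate 1 and 0 in each of the other 4 libraries.

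The log2 fold change of DTX3L was 0.83 (SE 0.32, adjusted p = 0.383). It was -0.12 without FAP replicate 2 (adjusted p = 0.875). Leaving out FAP replicate 3 instead gave 1.16 (adjusted p = 1.781e-04), and there DTX3L and IFIT3 were the 2 genes of the list called. In the fit with no low-count filter its adjusted p was 3.527e-08. PARP9, the ADP-ribosyltransferase that pairs with DTX3L and starts from the opposite strand within 447 shared bases, was at 35.4, 34.3 and 26.9 CPM with the control vector and at 29.8, 34.3 and 40.4 CPM with FAP (0.14, SE 0.14, adjusted p = 0.788). PARP14, a related enzyme gene farther along chromosome 3, was at 49.1 ± 9.18 and 44.1 ± 0.582 CPM (-0.15, adjusted p = 0.734). Neither of these genes shared the high level of DTX3L in FAP replicate 2.

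**Figure D3:**
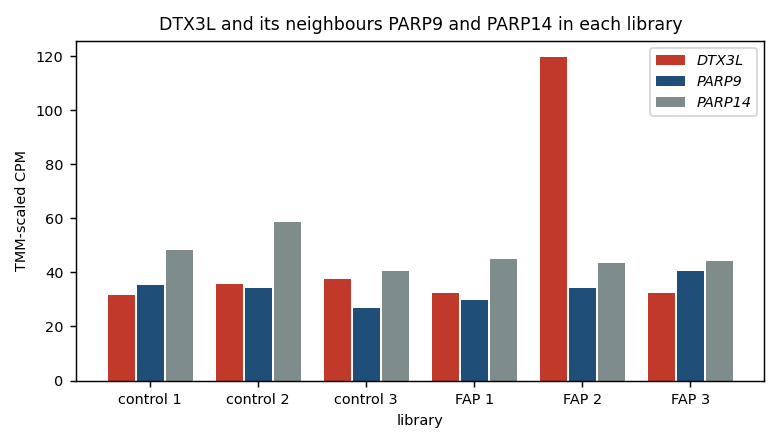
TMM-scaled CPM (y axis, from 0) of DTX3L, PARP9 and PARP14 in each of the 6 libraries (x axis), 1 bar a library. DTX3L reaches 119.7 CPM in FAP replicate 2 and is at 31.7 to 37.7 CPM elsewhere, while PARP9 and PARP14 stay between 26.9 and 58.7 CPM.

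Control replicate 2 was the highest of the 6 libraries in 22 of the 42 genes and the lowest in 0, whereas over all tested genes it was the highest in 15.6% and the lowest in 16.5%. The median deviation of the 42 genes from their own means over the 6 libraries was 0.18 on the log2 scale in control replicate 2, against 0.01 and 0.03 in control replicates 1 and 3 and -0.05, -0.06 and -0.08 in FAP replicates 1, 2 and 3. The median deviation of all tested genes was at most 0.02 in any library.

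**Figure D4:**
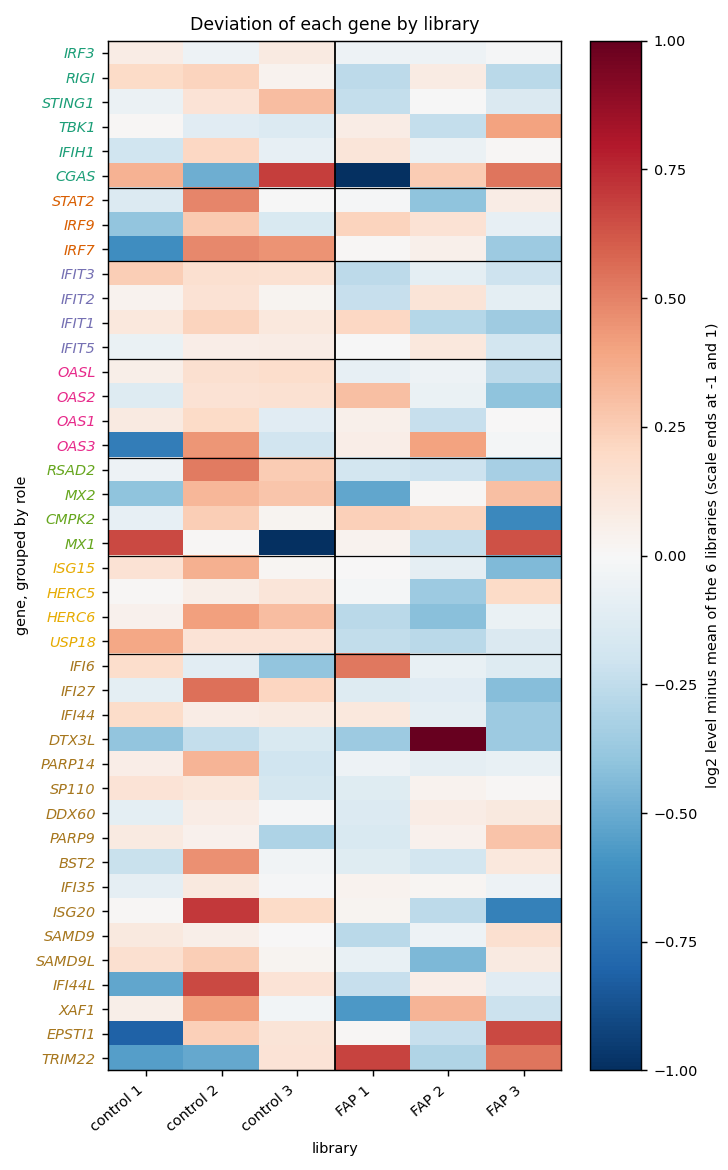
Log2 level of each tested gene (rows, grouped by role) in each library (columns) minus its mean over the 6 libraries, red above and blue below. Control replicate 2 is red in most rows, with a median deviation of 0.18, and the FAP columns are mostly pale blue.

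Without control replicate 2, 26 instead of 31 of the 42 values were negative (48.9% of all genes), 4 genes lay lower at an unadjusted p under 0.05 (3.41% of all genes), and the smallest adjusted p was 0.554, again of IFIT3. RSAD2 was -0.36 and IFI27 -0.29 in that fit, and STAT2 was -0.04. IFIT3 moved least among these genes, with log2 fold changes from -0.42 to -0.33 whichever library was left out, while ISG15 ranged from -0.43 to -0.22 and ISG20 from -0.79 to -0.40.

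The 44 genes together made 2582, 2816 and 2487 CPM in control replicates 1, 2 and 3 and 2330, 2351 and 2072 CPM in FAP replicates 1, 2 and 3. The groups did not overlap. ISG15 and IFIT3 alone contributed 48.1% of this sum. The other 42 of the 44 genes summed to 1259, 1413 and 1261 CPM with the control vector and 1252, 1264 and 1153 CPM with FAP, where FAP replicate 2 exceeded control replicates 1 and 3 and the groups overlapped. That overlap rested on the DTX3L value of FAP replicate 2. With DTX3L also left out, a choice made after seeing the data, the sums were 1227, 1377.5 and 1224 CPM for the control vector and 1219.8, 1144 and 1121 CPM for FAP, and the groups did not overlap, with FAP replicate 1 close to control replicate 3. In bulk RNA, fewer responding cells and less RNA per cell cannot be told apart.

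Genes with and without an ISRE core in their window had similar medians, a difference that was not tested. Of the 42 genes, 32 had a promoter window. The 19 with a core had a median log2 fold change of -0.11 with 12 negative, and the 13 without one had -0.12 with 10 negative. Over all tested genes with a window, the 297 with a core had 50.5% negative values and the 10234 without had 49.4%.

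Other genes of the pathway, outside the 44, had between 22.2% and 70.6% negative values in the lists that could be tested. None of the lists below held a called gene with edgeR, DESeq2 or limma-voom. Of 31 other interferon-stimulated genes, all tested, 12 had negative values and the median was 0.07. At an unadjusted p under 0.05, 2 of the 31 lay lower and 0 higher, against 5.30% and 4.61% of all tested genes. The same percentages apply beside such counts in the other lists. The smallest p-values belonged to CASP4, an inflammatory caspase (18.8 ± 2.32 and 14.2 ± 0.602 CPM, -0.40, adjusted p = 0.405), and IFITM2, which blocks viral entry (119 ± 19.1 and 98.6 ± 9.23 CPM, -0.27, adjusted p = 0.445). Of 13 interferon-gamma targets 9 were tested, 2 of them negative, with a median of 0.11 and 0 at an unadjusted p under 0.05. WARS1, a tryptophanyl-tRNA synthetase, had 0.15 and ICAM1, an adhesion molecule, 0.57 (adjusted p = 0.658 each).

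Receptors and JAK-STAT genes were evenly divided, with 8 of 15 tested negative, a median of -0.01, and 1 lower and 1 higher at an unadjusted p under 0.05. JAK1, the kinase shared by the type I, II and III receptors, was at 51.4, 55.7 and 57.1 CPM with the control vector and at 64.0, 71.9 and 74.1 CPM with FAP. All FAP libraries were above all controls (0.35, SE 0.11, adjusted p = 0.237). SOCS1, a feedback inhibitor of JAK kinases, was at 10.3 ± 1.13 and 7.55 ± 1.02 CPM (-0.44, SE 0.20, adjusted p = 0.480).

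Other sensors and adaptors had 8 of 17 tested values negative, with a median of 0.10 and 1 lower at an unadjusted p under 0.05. PQBP1, a cofactor of cGAS, had -0.29 (adjusted p = 0.355) and TANK, a scaffold of TBK1, 0.29 (adjusted p = 0.555). Of 9 nucleases and editors that limit self nucleic acid, 4 were negative, with a median of 0.07 and 1 lower and 1 higher at an unadjusted p under 0.05. The lysosomal nuclease DNASE2 had -0.34 (adjusted p = 0.460) at 21.8 ± 2.38 and 17.5 ± 1.85 CPM.

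Class I antigen presentation had 12 of 17 values negative, with a median of -0.04 and 2 lower at an unadjusted p under 0.05. B2M, the light chain of class I molecules, was at 1347, 1427 and 1422 CPM with the control vector and at 1302, 1201 and 896 CPM with FAP. All FAP libraries were below all controls, FAP replicate 3 by the widest margin (-0.30, SE 0.12, adjusted p = 0.416). HLA-F, a nonclassical class I gene, had -0.42 (adjusted p = 0.391). HLA genes resemble one another closely in sequence, so the counting of reads with several alignments could divide them.

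**Figure D5:**
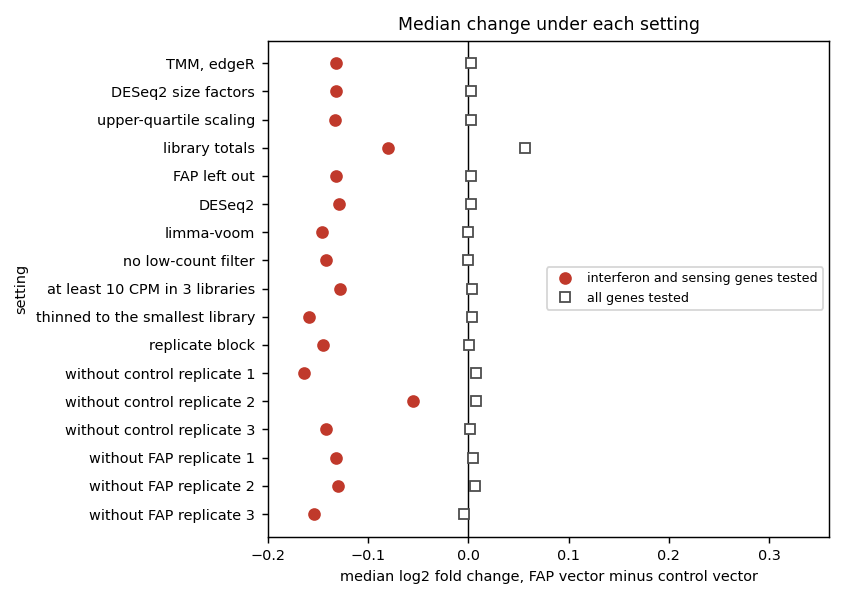
Median log2 fold change (x axis) of the tested interferon and sensing genes (filled circles) and of all tested genes (open squares) under each setting (y axis). The median of the listed genes is negative in all 17 settings shown and lies nearest 0 without control replicate 2, at -0.055, and scaling by library totals moves both medians upward, to -0.08 and 0.06.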

How the data were processed

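Counts per gene of 6 DRUG-seq libraries were used as the authors deposited them, whole numbers per Entrez gene ID, unnormalized. HISAT2, featureCounts, Subread and GRCh38 are listed in the submitters' processing notes. The sources used here do not give their versions, the strand setting or the handling of multiple alignments and molecular identifiers. Overlapping genes and near-identical copies may therefore share reads, and amplification copies may count as separate reads.

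Of 28395 gene IDs, 27745 matched a symbol and position in RefSeq (GRCh38.p14). Lengths are those of the longest GENCODE v29 transcript. Levels per kb hold only if reads spread along the whole transcript. The sources used here do not state the priming site of the reads. If reads come from an end of the transcript, dividing by length understates long transcripts. Across all genes, edgeR 4.0.16 (R 4.3.3) was run with TMM scaling, filterByExpr (minimum count 10, minimum total 15) and the quasi-likelihood F test of FAP minus control, two-sided, with Benjamini-Hochberg adjustment over 13373 genes. Standard errors were obtained as the absolute log2 fold change over the root of F.

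The 44 genes, the pathway lists and the settings were chosen with earlier results of these data known. Values in every library were given for the sensing genes, interferons and signalling factors, for the 8 tested genes with the smallest p and for the 5 highest per kb. Other genes were given by range and count, and each pathway list by its counts and its 2 smallest p, except that some listed genes are not reported here. IFIT1, PARP9 and USP18, the genes of the marker lists, JAK1 and B2M were given more fully after their values were seen. Alternatives were DESeq2 1.42.0, limma-voom (limma 3.58.1), other scalings and filters, thinned counts, a replicate block and each library left out. The edgeR step was tested on simulated counts, with changes put into genes of at least 10 CPM. It called 10% of the 1.25-fold, 60% of the 1.5-fold and 100% of the 2-fold changes, and 6 of 141 calls were false. Changes of 1.5-fold or less would thus often go uncalled in such data. The data themselves gave 30 calls, so the simulated rates may not carry over to them. Figures were made in matplotlib 3.10.9.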

Additional observations from a re-analysis of the deposited data

How the results depend on the processing

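No gene of the 44 was called in the main fit or in 13 of the 16 other settings. DESeq2 called 1 (IFIT3), the fit with no low-count filter 4 (DTX3L higher, IFI27, ISG20 and RSAD2 lower) and the fit without FAP replicate 3 called 2 (DTX3L and IFIT3). Over the fits that left out 1 library the number called ran from 0 to 2 and the median log2 fold change of the listed genes from -0.16 to -0.055, the latter without control replicate 2. Over all genes, 13 were called higher and 17 lower. These numbers were 29 and 53 with DESeq2, 54 and 98 with no low-count filter, 7 higher with limma-voom and 6 lower with library totals. They ranged from 1 to 109 and from 2 to 139 when 1 library was left out. The causes of these differences were not tested. With the replicate block, 28 genes were called lower and the listed genes had a median of -0.14 with 0 called. Same-numbered libraries did not deviate together (correlations of -0.00379, 0.0114 and -0.00965). Correlations of differently numbered libraries ran from -0.0102 to 0.0122, so the counts showed no pairing by number. Whether same-numbered libraries were prepared together is not stated. Of 663 recomputed values of single genes, 32 changed sign, in 19 of the 42 genes, none of them in a called value. Thinning every library to the smallest total left a median of -0.16. Genes under about 10 CPM, such as CGAS, MX1 and OAS3, are limited by depth.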
